A study of Homo sapiens with 6 samples.

Results

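The genes described here encode a signalling route from the cell surface to RAS and ERK in HepG2, an established human line derived from a liver tumour that keeps many hepatocyte functions. They are the RAS exchange factors SOS1 and SOS2, the receptors EGFR, ERBB2, MET, PDGFRB and EPHA2, the EGFR ligand AREG, and the ERK feedback genes DUSP6 and SPRY2, 10 genes of 60564 with an Ensembl identifier. All 10 passed the filter on low counts that left 22230 genes for testing. The genes were taken by symbol, and the set was chosen by what was known of this pathway together with their levels in these same libraries, so the differences given for the 10 genes are descriptions, with no test. The formononetin group had 3 libraries from wild-type HepG2 cells given formononetin, a methoxylated isoflavone found in legumes, over 72 h, the dose being labelled 625 with its unit written μm. The control group had 3 libraries from wild-type HepG2 cells labelled with the culture medium DMEM alone, and a solvent control or a culture time for these cells is not stated. The cells of both groups were grown in DMEM with serum, and the libraries are bulk, so less transcript per cell and fewer cells with the transcript cannot be told apart.

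Receptor tyrosine kinases are cell surface proteins that phosphorylate themselves when a ligand binds. The adaptor GRB2 then brings SOS1 or SOS2 to the membrane, where SOS loads RAS with GTP, and RAS starts the RAF, MEK and ERK kinase chain. Active ERK limits its own signal, in part by inducing DUSP6, a phosphatase that removes phosphate from ERK, and SPRY2, which dampens signalling upstream of ERK. In liver, EGFR and MET are the receptors best known for driving hepatocyte growth after injury.

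Counts on named genes ran from 37465148 to 45682722 per formononetin library and from 30848848 to 36243606 per control library. Levels are given in CPM (counts per 1000000 counts of the library, after TMM scaling), in the order of replicates 1 to 3. All 10 hepatocyte marker genes examined were detected in each library, with a summed level of 41133 to 42360 CPM in formononetin and 50921 to 52461 CPM in control libraries. Formononetin libraries showed 8 of them lowered and 1 raised. Of markers of other cell types, EPCAM and SOX9 of cholangiocytes, ACTA2 of stellate cells and fibroblasts and LYZ of macrophages were lowered and CD68 of macrophages raised. KRT19 of cholangiocytes was neither (log2 fold change -0.059), while PTPRC, HBB, EMCN and CFTR had no counts in any library. The mitochondrial share of counts was 2.81 to 3.57% in formononetin and 3.80 to 3.92% in control libraries. The part of these differences in the results on the pathway was not tested.

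SOS1 was higher in formononetin libraries. It stood at 464, 466 and 462 CPM in formononetin libraries, against 137, 142 and 129.5 CPM in control libraries. Every formononetin library was above every control library, and the formononetin libraries differed from each other by less than the control libraries did. The means were 464 ± 2.27 CPM in formononetin and 136 ± 6.50 CPM in control libraries (SD, n = 3 each), a log2 fold change of 1.77 ± 0.046 (standard error), or 3.40-fold. SOS1 ranked 9 by log2 fold change among the 10330 tested genes whose mean log2 CPM was at least 3. The values rest on 17777 to 20906 counts per formononetin library and 4177 to 5096 counts per control library. SOS1 (ENSG00000115904) spans 142.9 kb of chromosome 2, from 38981396 to 39124345 on the minus strand (GRCh38, GENCODE 29).

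Its paralog SOS2 (ENSG00000100485, chromosome 14, 50117120 to 50231558, minus strand), which serves the same exchange step, was at 34.2, 38.1 and 36.1 CPM in formononetin libraries and 30.9, 36.9 and 33.4 CPM in control libraries. The groups overlapped, and the log2 fold change was 0.099 ± 0.082. The ratio of the 2 transcripts within a library does not depend on how libraries are scaled. Per kilobase of exon, SOS1 was 10.2, 9.15 and 9.57 times SOS2 in formononetin libraries, against 3.33, 2.89 and 2.90 times in control libraries, with means of 9.63 ± 0.503 and 3.04 ± 0.250. No 50-base word of the annotated SOS1 or SOS2 transcripts occurs in a transcript of another gene, on either strand.

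The 3 tested gene models inside SOS1 were also called as higher in formononetin libraries by the same fit across all genes (edgeR, adjusted p under 0.05, hereafter called). SOS1-IT1, HSPE1P13 and RNU6-198P lie within the span of SOS1 and share no exon base with it. HSPE1P13, a processed pseudogene on the same strand, was at 5.19, 5.66 and 5.32 CPM in formononetin libraries, against 1.05, 1.23 and 1.21 CPM in control libraries (log2 fold change 2.21). SOS1-IT1, an intronic transcript on the same strand, was at 5.21, 10.5 and 6.60 CPM in formononetin libraries and 2.99, 3.83 and 2.6 CPM in control libraries (1.24), and RNU6-198P, a small nuclear RNA pseudogene on the opposite strand, differed by 1.88 at no more than 34 counts per library. The nearest tested protein-coding gene upstream, CDKL4, lies 51.3 kb away and averaged 2.46 ± 0.426 CPM in formononetin and 0.718 ± 0.357 CPM in control libraries (1.78, called). On the other side, ARHGEF33 lies 5.9 kb away on the opposite strand and averaged 0.715 ± 0.0732 CPM in formononetin and 0.309 ± 0.240 CPM in control libraries (1.17, not called). Whether reads of the SOS1 transcript were assigned to these models was not tested.

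**Figure D1:**
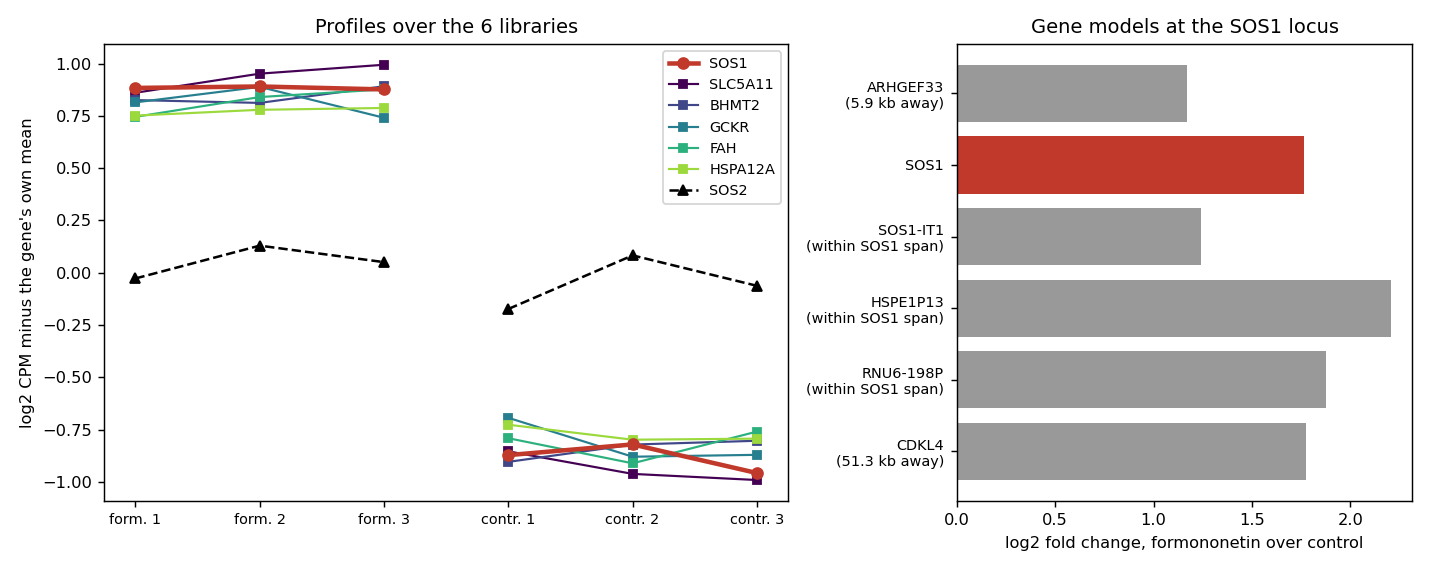
Left, log2 CPM minus each gene's own mean (vertical axis) in the 6 libraries (horizontal axis), for SOS1, SOS2 and the 5 genes whose profile differs least from that of SOS1. Right, log2 fold change of formononetin over control for SOS1 (1.77), the 3 models within its span and the nearest tested protein-coding genes on each side (ARHGEF33 at 1.17, CDKL4 at 1.78), all above 0.

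The profile most like that of SOS1 was sought among the 10329 other genes whose mean log2 CPM was at least 3, by the root mean square difference of centred log2 CPM over the 6 libraries. The 5 nearest were SLC5A11, which encodes a sodium-coupled inositol transporter (difference 0.077), BHMT2, a homocysteine methyltransferase gene (0.0774), GCKR, the gene of the glucokinase regulator (0.105), FAH, the last enzyme of tyrosine breakdown (0.113), and HSPA12A of the HSP70 family (0.121). FAH had 91.2, 97.4 and 99.9 CPM in formononetin libraries, against 31.5, 28.9 and 32.2 CPM in control libraries. These genes were picked for their likeness, so their differences are no separate result. None of them belongs to the RAS pathway lists.

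RefSeq gives 2 start sites for SOS1, and the 300 bases around each (250 before and 50 from the start, GRCh38.p14, minus strand) are printed here because this gene is the exchange factor that was higher with formononetin. The first window is chr2:39124819-39125118 and the second chr2:39121002-39121301. Capitals mark matches, on either strand, to the aryl hydrocarbon receptor core GCGTG, the ETS motif CCGGAA, the AP-1 motif TGANTCA, the cyclic AMP response element TGACGTCA, the antioxidant response element TGACNNNGC or the SRF CArG box, with overlapping matches of different motifs each counted.
SOS1 start site 1: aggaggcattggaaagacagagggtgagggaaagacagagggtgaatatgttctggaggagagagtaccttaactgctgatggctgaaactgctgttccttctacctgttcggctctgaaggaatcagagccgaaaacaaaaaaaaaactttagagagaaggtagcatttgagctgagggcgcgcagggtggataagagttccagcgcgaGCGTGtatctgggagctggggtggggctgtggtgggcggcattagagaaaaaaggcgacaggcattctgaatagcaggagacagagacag
SOS1 start site 2: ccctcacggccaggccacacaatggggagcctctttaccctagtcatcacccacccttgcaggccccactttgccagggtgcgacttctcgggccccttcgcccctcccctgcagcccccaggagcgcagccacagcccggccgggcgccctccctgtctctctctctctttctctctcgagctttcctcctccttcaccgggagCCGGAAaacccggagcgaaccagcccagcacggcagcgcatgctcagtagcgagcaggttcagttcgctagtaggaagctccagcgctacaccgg

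The first window holds 1 match to the receptor core and the second 1 match to the ETS motif. Of all 35116 RefSeq promoter windows, 36.5% hold the receptor core and 17.2% the ETS motif. Over the 14 windows of the 10 genes, 6 held the receptor core, 4 the ETS motif, 2 AP-1 (7.71% of all windows), 2 the cyclic AMP response element (1.85%), and 0 the antioxidant response element (13.3%) or the CArG box (1.29%). A match here says only that these letters occur in the window.

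Of the receptors, PDGFRB showed the widest difference. This receptor for platelet-derived growth factor B marks mesenchymal cells such as hepatic stellate cells. It was at 3.85, 4.46 and 3.82 CPM in formononetin libraries, against 12.8, 14.6 and 12.6 CPM in control libraries, with no overlap. The means were 4.04 ± 0.361 CPM in formononetin and 13.3 ± 1.11 CPM in control libraries (SD, n = 3 each), a log2 fold change of -1.72 ± 0.12, and the control mean was 3.30 times the formononetin mean in the fit. Counts were 155 to 173 per formononetin library and 389 to 523 per control library. PDGFRB (ENSG00000113721) lies on chromosome 5, 150113837 to 150155872, minus strand, beside CSF1R, which averaged 0.917 ± 0.345 CPM in formononetin and 0.931 ± 0.0322 CPM in control libraries and was not called. On its other side CAMK2A, 63.6 kb away, was called as lower at a very low level, 0.0676 ± 0.0628 CPM in formononetin and 0.442 ± 0.0991 CPM in control libraries (log2 fold change -2.70).

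Of 8 other markers of stellate cells and fibroblasts, 2 had enough counts to be tested. COL1A2, COL3A1, DCN and LUM had no counts in any library, COL1A1 reached at most 0.447 CPM and LRAT at most 0.0838 CPM. RGS5, a pericyte marker, had 2.06, 1.26 and 0.419 CPM in formononetin libraries and 0.691, 1.0 and 0.856 CPM in control libraries and was not called (log2 fold change 0.53). The list's summed level ran from 37.5 to 41.6 CPM in formononetin and from 65.2 to 69.3 CPM in control libraries. Nearly all of that sum was ACTA2, the smooth muscle actin gene, which was called as lower (log2 fold change -0.79). ACTA2 was at 39.6, 36 and 38.0 CPM in formononetin libraries and 64.4, 67.8 and 64.5 CPM in control libraries, and its part in the PDGFRB difference was not tested. The promoter window of PDGFRB is chr5:150155796-150156095 (minus strand), shown as the receptor with the widest difference, and its capitals mark 1 match to the receptor core on the other strand.
PDGFRB: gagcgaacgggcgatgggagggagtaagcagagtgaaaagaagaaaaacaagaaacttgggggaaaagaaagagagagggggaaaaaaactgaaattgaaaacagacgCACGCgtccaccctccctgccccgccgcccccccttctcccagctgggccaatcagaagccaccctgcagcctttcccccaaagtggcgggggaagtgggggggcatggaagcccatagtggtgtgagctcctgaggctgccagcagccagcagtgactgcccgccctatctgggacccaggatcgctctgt

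EPHA2, a receptor for ephrin-A ligands and itself a gene that ERK induces, was at 155, 139 and 138 CPM in formononetin libraries, against 234, 205 and 214 CPM in control libraries. The groups did not overlap, and the log2 fold change was -0.59 ± 0.067. EPHA2 (ENSG00000142627, chromosome 1, 16124337 to 16156087, minus strand) had the highest level per kilobase of exon of all 10 genes in control libraries, at 52.3 ± 3.47 CPM per kb. In formononetin libraries it was second to SOS1, at 34.7 ± 2.32 against 50.1 ± 0.245 CPM per kb for SOS1. In control libraries SOS1 was at 14.7 ± 0.701 CPM per kb, below EPHA2, MET and ERBB2, and its values overlapped those of DUSP6, the next in order.

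ERBB2, the receptor that pairs with the other ERBB receptors and binds no ligand of its own, was at 167, 167 and 169.8 CPM in formononetin libraries, against 201, 199.5 and 211 CPM in control libraries. The difference was small and the groups did not overlap (log2 fold change -0.28 ± 0.041). ERBB2 (ENSG00000141736, chromosome 17, 39687914 to 39730426, plus strand) shares 571 exon bases with MIEN1 and 194 with PGAP3 on the opposite strand, and the log2 fold change of their summed counts was -0.26. Its neighbour GRB7, an adaptor gene 7.5 kb away, was lower by more, at 24.1 ± 0.885 CPM in formononetin and 55.5 ± 2.97 CPM in control libraries (-1.20, called). TCAP, 21.4 kb away on the other side, was at a low level, 0.344 ± 0.0917 CPM in formononetin and 0.985 ± 0.477 CPM in control libraries. It was not called (-1.51).

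EGFR and MET, the receptors for EGF and for hepatocyte growth factor, overlapped between the groups. MET (ENSG00000105976, chromosome 7, 116672390 to 116798386, plus strand) was at 174, 209 and 174 CPM in formononetin libraries and 191, 216 and 220.2 CPM in control libraries (log2 fold change -0.17 ± 0.087). Formononetin replicate 2 stood within the control range. EGFR (ENSG00000146648, chromosome 7, 55019021 to 55211628, plus strand) was at 21.3, 20.8 and 21.4 CPM in formononetin libraries and 20.3, 24.9 and 24.5 CPM in control libraries (-0.13 ± 0.092). Control replicate 1 was below every formononetin library, and the other controls were above. EGFR shares 186 exon bases with its antisense gene EGFR-AS1, which had at most 21 counts in any library. Per kilobase, EGFR was above PDGFRB alone in formononetin libraries (1.69 ± 0.0254 against 0.566 ± 0.0505 CPM per kb), and in control libraries the values of EGFR (1.86 ± 0.205 CPM per kb) and PDGFRB (1.87 ± 0.156 CPM per kb) overlapped at the low end of the order.

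The ligand AREG, which encodes amphiregulin, a growth factor shed from the cell surface that binds EGFR, was higher with formononetin. It had 12, 11.7 and 12.3 CPM in formononetin libraries, against 6.58, 9.28 and 6.40 CPM in control libraries. Control replicate 2 was the highest control and still below every formononetin library. The log2 fold change was 0.69 ± 0.15, from 446 to 557 counts per formononetin library and 200 to 332 counts per control library. The ratio of AREG to EGFR counts within a library was 0.562, 0.561 and 0.574 in formononetin libraries and 0.324, 0.372 and 0.261 in control libraries. AREG (ENSG00000109321, chromosome 4, 74445134 to 74455009, plus strand) neighbours EREG, another EGFR ligand gene, which averaged 0.731 ± 0.0891 CPM in formononetin and 0.348 ± 0.186 CPM in control libraries and was not called (1.08 ± 0.38, adjusted p = 0.0878).

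The promoter window of AREG is chr4:74444886-74445185 (plus strand), printed because it held the most matches of any of the 14 windows. Capitals mark 1 match to the ETS motif, 2 to the receptor core and 1 to the cyclic AMP response element.
AREG: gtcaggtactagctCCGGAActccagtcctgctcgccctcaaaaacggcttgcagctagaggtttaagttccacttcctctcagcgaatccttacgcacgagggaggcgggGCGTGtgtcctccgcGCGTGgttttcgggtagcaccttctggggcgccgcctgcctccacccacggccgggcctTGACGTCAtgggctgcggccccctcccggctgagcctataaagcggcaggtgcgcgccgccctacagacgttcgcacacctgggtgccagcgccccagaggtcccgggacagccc

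DUSP6, the phosphatase that acts on ERK in the cytoplasm, was at 103, 80.7 and 92.7 CPM in formononetin libraries, against 72.0, 55.9 and 49.1 CPM in control libraries. The lowest formononetin library was above the highest control library, and the log2 fold change was 0.64 ± 0.15. DUSP6 varied more between replicates than most of the 10 genes, with a coefficient of variation of 12.2% in formononetin and 19.9% in control libraries, where SOS1 had 0.489% and 4.76%. DUSP6 (ENSG00000139318, chromosome 12, 89347232 to 89353271, minus strand) shares 1875 exon bases with the antisense model AC024909.2, and reads from the 2 cannot be told apart without a known strand setting. That model was at 5.14, 14.1 and 13.3 CPM in formononetin libraries and 8.19, 10.1 and 9.65 CPM in control libraries, and the log2 fold change of the summed counts of DUSP6 and AC024909.2 was 0.59. The promoter window of DUSP6 is chr12:89352452-89352751 (minus strand), shown beside that of AREG as the feedback gene that was higher, and its capitals mark 1 match to the receptor core.
DUSP6: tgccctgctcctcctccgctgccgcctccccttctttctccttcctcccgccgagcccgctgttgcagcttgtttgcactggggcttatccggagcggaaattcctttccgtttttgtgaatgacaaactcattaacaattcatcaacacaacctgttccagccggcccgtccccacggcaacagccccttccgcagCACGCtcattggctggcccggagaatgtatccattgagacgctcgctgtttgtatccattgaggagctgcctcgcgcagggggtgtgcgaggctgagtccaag

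SPRY2, the other feedback gene, overlapped between the groups. It was at 15.5, 13.2 and 14.5 CPM in formononetin libraries and 12.6, 14.4 and 13.5 CPM in control libraries, a log2 fold change of 0.094 ± 0.095. SPRY2 (ENSG00000136158) lies on chromosome 13, 80335976 to 80340951, minus strand. The ratio of DUSP6 to SPRY2 per kilobase was 4.36, 4.0 and 4.20 in formononetin libraries, against 3.76, 2.55 and 2.38 in control libraries.

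**Figure D2:**
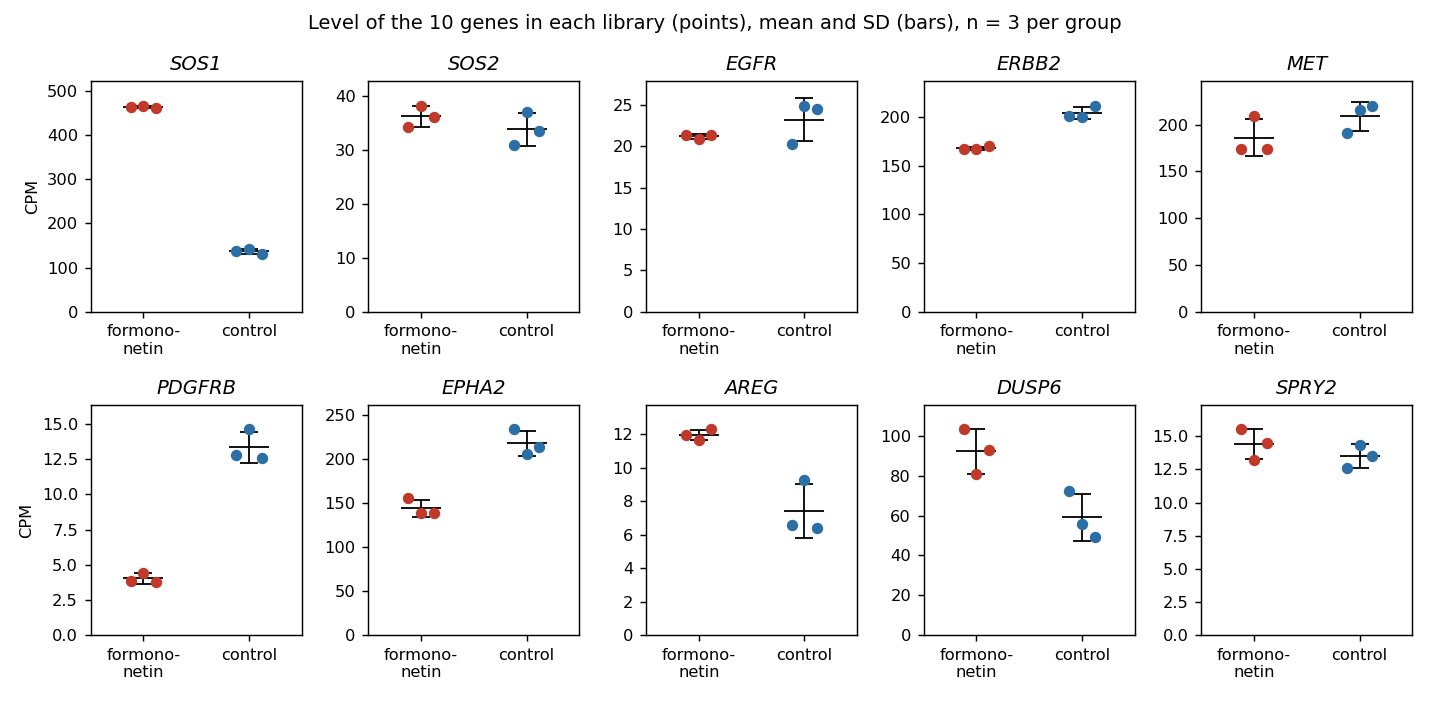
CPM (vertical axis, from 0) of the 10 genes in each library, with formononetin at the left and control at the right of each panel; points are libraries and bars the mean and SD (n = 3). SOS1 stands at 462 to 466 CPM in formononetin and 129.5 to 142 CPM in control libraries, PDGFRB is lower in formononetin libraries, and SOS2, EGFR, MET and SPRY2 overlap.

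By the threshold of the fit across all genes, 6 of the 10 genes were called, where 20.7% of all tested genes were. SOS1, AREG and DUSP6 were called as higher, against 12% of all genes, and PDGFRB, EPHA2 and ERBB2 as lower, against 8.71%. The same 6 genes had groups that did not overlap, as had 39.4% of all tested genes (20.8% higher and 18.7% lower with formononetin). SOS1 and PDGFRB were both called and at least 2-fold apart, as were 2.63% of all genes. Since the genes were chosen with this comparison known, these counts describe the set only. The calls of AREG and DUSP6 were lost when 1 library was left out: for AREG without formononetin replicates 1 or 3 and without control replicates 1 or 3 (log2 fold change from 0.59), and for DUSP6 without formononetin replicates 1 or 3 and without control replicates 2 or 3 (from 0.53).

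**Figure D3:**
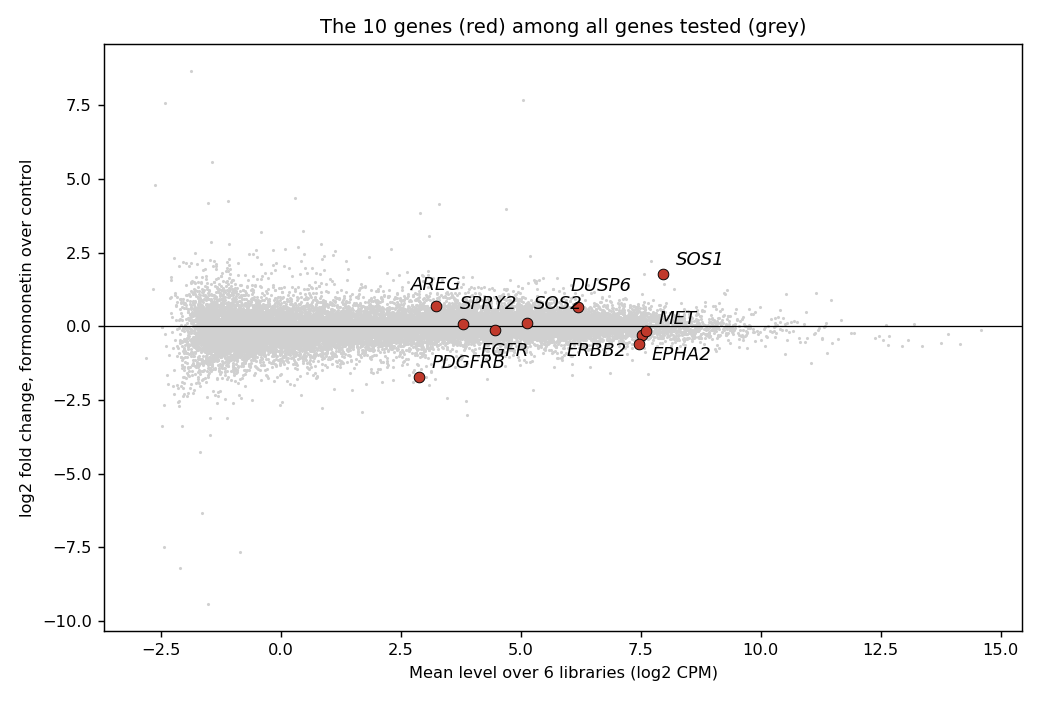
Mean level over the 6 libraries (log2 CPM, horizontal axis) against the log2 fold change of formononetin over control (vertical axis) for the 22230 genes tested (grey) and the 10 genes (red). SOS1 at 1.77 and PDGFRB at -1.72 lie far from 0, while SOS2, SPRY2, EGFR and MET lie near 0.

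The rest of the pathway was read from 5 lists of genes outside the set, 179 genes of which 130 had enough counts to be tested. Of these 19 were raised (14.6%, against 12% of all tested genes) and 20 lowered (15.4%, against 8.71%), with a median log2 fold change of -0.048, where that of all tested genes was -0.011. Since the lists were chosen with earlier results of these data known, their counts and shares describe the lists only. Under upper quartile scaling 11 were raised and 33 lowered, and over all genes 1813 were raised and 2737 lowered, against 2659 and 1937 with TMM. Raised genes numbered 10 to 12 with any 1 library left out other than control replicate 1.

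With TMM scaling more receptors than members of any other list were lowered, while under upper quartile scaling 12 brakes and 8 receptors were. Of 23 receptor tyrosine kinase genes tested, 7 fell (30.4%, against 8.71% of all tested genes) and 1 rose (4.35%, against 12%). The median was -0.30, and 13 of the 50 listed had no counts in any library. Those that fell were FGFR3, FGFR1, FGFR2, EPHB4, MERTK, TYRO3 and ERBB3, receptors for fibroblast growth factors, ephrin-B ligands, GAS6 or protein S, and neuregulins. The count of 7 stood in each fit with 1 library left out. FGFR3 was at 141, 142 and 136 CPM in formononetin libraries, against 215, 198 and 226 CPM in control libraries (-0.61 ± 0.056, edgeR adjusted p = 0.000632). FGFR1 was at 96.8, 94.6 and 97.5 CPM in formononetin libraries, against 140.5, 143 and 148 CPM in control libraries (-0.58 ± 0.042, adjusted p = 0.000295). ERBB3, the partner of ERBB2, was at 449.9, 433 and 424 CPM in formononetin libraries, against 515, 535 and 512 CPM in control libraries (-0.26 ± 0.040, adjusted p = 0.00478).

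The receptor that rose was INSR, the insulin receptor. It was at 305, 306 and 304 CPM in formononetin libraries, against 246, 156 and 157 CPM in control libraries (0.71 ± 0.17, adjusted p = 0.0239). Control replicate 1 stood apart from the other controls. With any 1 library left out other than control replicate 1, the call was lost (adjusted p at most 0.0745) and 0 receptors were raised, and without control replicate 1 there were 2. EPHA4, another ephrin receptor gene, had no counts in any library.

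Of 19 tested ligand genes 1 rose and 3 fell (median -0.14), shares of 5.26% and 15.8%, against 12% and 8.71% of all tested genes. Without control replicate 1 there were 2 that rose. TGFA, which binds EGFR as AREG does, was at 38.9, 33.1 and 35.8 CPM in formononetin libraries, against 28.2, 27.7 and 28.1 CPM in control libraries (0.36 ± 0.073, adjusted p = 0.0133). PDGFA, a ligand of platelet-derived growth factor receptors, was at 21.4, 19.9 and 19.1 CPM in formononetin libraries, against 34.9, 31.8 and 31.5 CPM in control libraries (-0.70 ± 0.076, adjusted p = 0.00105). EFNA1, an ephrin that binds EPHA2, fell to 77.4 ± 0.770 CPM in formononetin libraries, against 105 ± 2.20 CPM in control libraries (-0.44 ± 0.042, adjusted p = 0.000709). PDGFB, a ligand of PDGFRB, had a log2 fold change of 0.24 ± 0.14 and HBEGF, another EGFR ligand, of -0.34 ± 0.13, and neither was called (adjusted p = 0.282 and 0.112). HGF, the ligand of MET, had no counts in any library.

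Downstream of the receptors, 9 of 33 adaptor, RAS, exchange factor and kinase genes rose and 3 fell (median 0.10). The shares were 27.3% raised, against 12% of all tested genes, and 9.09% lowered, against 8.71%. The raised count was 5 without any 1 formononetin library, 6 without control replicate 2 and 4 without control replicate 3, where 1 gene was lowered. It was 4 under upper quartile scaling. MRAS, a RAS relative that helps activate RAF, was at 33.4, 37.5 and 41.5 CPM in formononetin libraries, against 20.4, 21.0 and 20.4 CPM in control libraries (0.86 ± 0.088, adjusted p = 0.000878). RPS6KA1, a kinase that ERK activates, was at 53.8, 55.9 and 56.1 CPM in formononetin libraries, against 36.9, 34.3 and 32.7 CPM in control libraries (0.67 ± 0.063, adjusted p = 0.000636). Its relative RPS6KA3 fell, at 562 ± 20.3 CPM in formononetin and 696 ± 13.0 CPM in control libraries (-0.31 ± 0.041, adjusted p = 0.00233). RPS6KA3 was called in each of the 13 alternative settings. FRS2, the docking protein of fibroblast growth factor receptors, was at 15.3, 14.7 and 15.3 CPM in formononetin libraries, against 18.8, 30.5 and 31.2 CPM in control libraries (-0.83 ± 0.18, adjusted p = 0.0190). Control replicate 1 again stood apart, and the call of FRS2 was lost with any 1 library left out except control replicate 1 (adjusted p at most 0.0644). SHC2, an adaptor gene, changed by -0.56 ± 0.12 (adjusted p = 0.0151), and its call was lost without control replicate 3 (adjusted p = 0.0557).

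Of the RAS genes themselves, NRAS was at 107, 111 and 111 CPM in formononetin libraries, against 83.7, 79.2 and 85.2 CPM in control libraries (0.41 ± 0.048, adjusted p = 0.00148). HRAS was not called (0.11 ± 0.11, adjusted p = 0.509). MAP2K1, which encodes MEK1, rose to 46.5 ± 0.978 CPM in formononetin libraries, against 35.7 ± 3.43 CPM in control libraries (0.38 ± 0.078, adjusted p = 0.0135). BRAF, MAP2K2 and MAPK3 were not called, with log2 fold changes of -0.22, 0.18 and 0.091. GRB2, the adaptor that carries SOS proteins to receptors, was at 144, 129.6 and 52.2 CPM in formononetin libraries and 129.4, 122 and 120.3 CPM in control libraries. Formononetin replicate 3 was far below the other 5 libraries, and GRB2 was not called (-0.19 ± 0.32, adjusted p = 0.738).

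Genes that restrain the route moved both ways. Of 25 RAS GTPase-activating proteins and receptor brakes tested, 5 rose and 5 fell (median -0.13). That was 20% in each direction, against 12% raised and 8.71% lowered of all tested genes. Raised members numbered 3 or 4 and lowered members 2 or 3 in each fit with 1 library left out, and 12 were lowered under upper quartile scaling. PTPRJ, a receptor-type phosphatase gene, was at 14.8, 15.0 and 13.8 CPM in formononetin libraries, against 9.28, 9.30 and 10.3 CPM in control libraries (0.60 ± 0.088, adjusted p = 0.00386). PTPN1, which encodes the phosphatase PTP1B, rose by 0.47 ± 0.057 on the log2 scale (adjusted p = 0.00163). LRIG1, which promotes loss of ERBB receptors from the cell surface, was at 72.2, 93.4 and 94.4 CPM in formononetin libraries, against 117, 123 and 120.4 CPM in control libraries (-0.47 ± 0.10, adjusted p = 0.0173), a call lost when control replicates 2 or 3 were left out (adjusted p at most 0.0580). LRIG2 changed by -0.25 ± 0.054 (adjusted p = 0.0164), a call lost with a replicate block or when formononetin replicates 2 or 3 were left out (adjusted p at most 0.0644). NF1, which switches RAS off, had a log2 fold change of -0.13 ± 0.051 and ERRFI1, an inhibitor of EGFR, of -0.13 ± 0.059, and neither was called (adjusted p = 0.122 and 0.169).

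Among 30 other ERK feedback and output genes tested, 3 rose and 2 fell (median -0.026). The shares of 10% and 6.67% were close to those of all tested genes, 12% and 8.71%. Lowered members numbered 4 without control replicate 3 and 1 without formononetin replicate 3. DESeq2 gave 6 raised and 4 lowered, library totals alone 5 raised, and upper quartile scaling 4 lowered. DUSP9, an ERK phosphatase like DUSP6, was at 272, 274 and 284 CPM in formononetin libraries, against 201, 181 and 189 CPM in control libraries (0.54 ± 0.050, adjusted p = 0.000597). DUSP7, of the same group, changed by 0.32 ± 0.092 (adjusted p = 0.0471), a call lost in 9 of 13 alternative settings (adjusted p at most 0.136). ETV4, an ETS factor that ERK signalling induces, was at 246, 238 and 252 CPM in formononetin libraries, against 296, 293 and 324 CPM in control libraries (-0.31 ± 0.051, adjusted p = 0.00554). The log2 fold change was 0.10 ± 0.039 for its relative ETV5 (adjusted p = 0.103), 0.21 ± 0.068 for SPRY4 (adjusted p = 0.0742), -0.15 ± 0.22 for DUSP4 (adjusted p = 0.690), -0.46 ± 0.15 for PHLDA1 (adjusted p = 0.0664) and -0.14 ± 0.094 for the immediate early gene EGR1 (adjusted p = 0.369). None of these 5 was called.

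**Figure D4:**
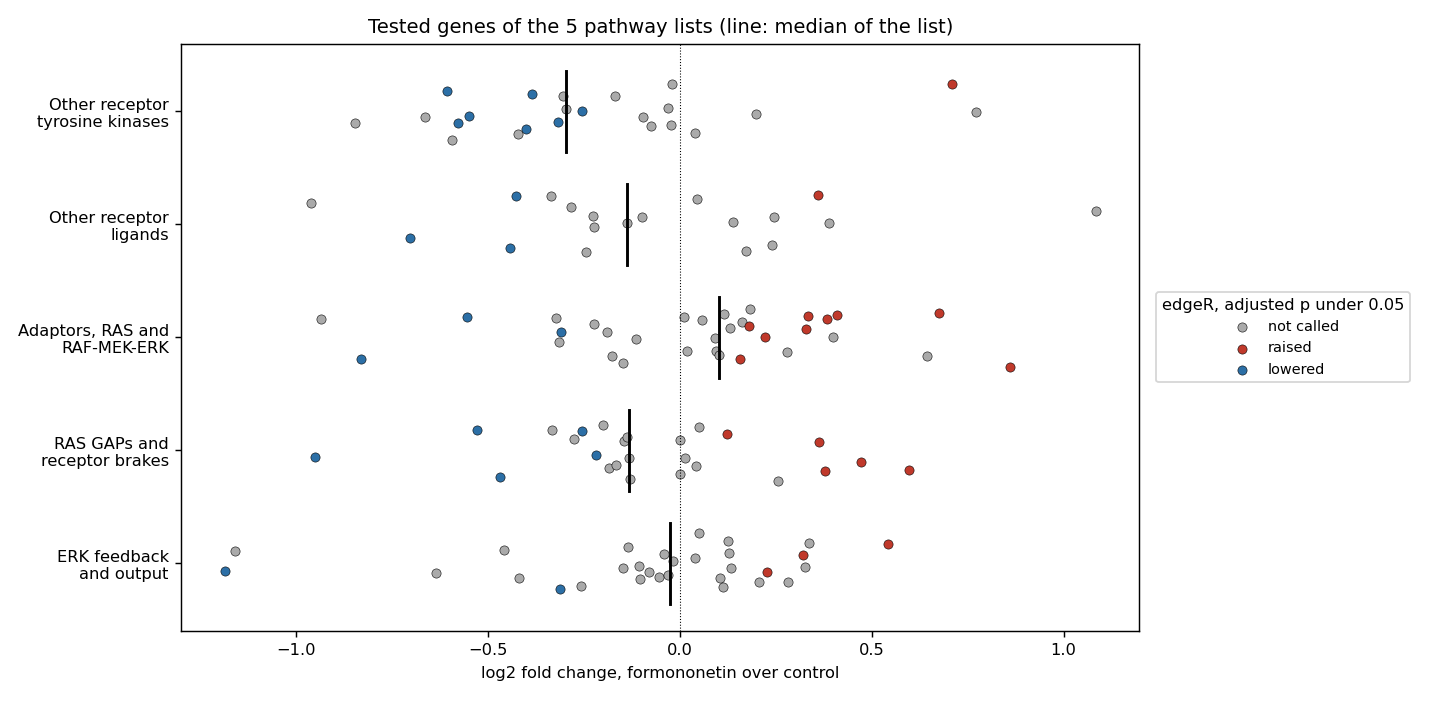
Log2 fold change of formononetin over control (horizontal axis) for the 130 tested genes of the 5 pathway lists (rows), each point a gene coloured by the edgeR call (adjusted p under 0.05), with the list median as a line. The receptor list has 7 genes lowered (30.4%) and 1 raised (4.35%), and the adaptor, RAS and kinase list 3 lowered (9.09%) and 9 raised (27.3%). Of all tested genes 8.71% were lowered and 12% raised.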

How the data were processed

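RNA sequencing measured gene expression in 3 formononetin and 3 control libraries of HepG2, made from total RNA with a stranded mRNA kit, per the labels' protocols. The authors deposited raw counts per gene. The submitters' processing notes name GRCh38, STAR 2.5.3a and StringTie 1.3.1c with no roles. The counter, its strand setting and its annotation were not given in the sources used here. Assembled loci without a gene name (2165 of 62729 rows, 3.82 to 5.62% of counts) stayed out of library sizes and tests.

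Counts were filtered with filterByExpr, scaled with TMM and compared between groups in edgeR 4.0.16 (R 4.3.3) by its quasi-likelihood test, with group as the only term, two-sided p-values and Benjamini-Hochberg adjustment over 22230 genes. The threshold was 0.05. The standard error of a log2 fold change was its size over the root of the F statistic. The script was also tested on simulated data. Replicate libraries differed from each other well beyond counting noise (chi-square over its degrees of freedom 13.5 to 34.6), so none was a repeat deposit. Whether replicates were separate cultures is not stated, so p-values may reflect technical spread alone, and no batch is named. Exon lengths, overlaps and transcripts came from GENCODE 29. The exon length of a gene was the union of its annotated exons. Orders and ratios per kilobase depend on that length, and which transcripts were expressed was not examined. Promoter windows came from RefSeq (GRCh38.p14), matched by symbol for 10 of 10 genes.

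The 10 genes, the 5 lists and the motifs were chosen with earlier results of these data known. The genes named from a list were the 2 largest rises and 2 largest falls among its called genes, at a mean log2 CPM (prior count 2) of at least 3, plus genes fixed by name, of which some are not reported here. FGFR2, EPHB4, MERTK, TYRO3, RPS6KA3, GRB7, CDKL4, ARHGEF33, CSF1R, CAMK2A, TCAP, ACTA2, RGS5, KRT19 and the models within SOS1 were named after their values were seen. Alternatives were DESeq2 1.42.0, other scalings and low-count filters, the replicate number as a block, leaving out each library, and summing genes whose exons overlap by at least 50 bases. Counts over the 5 lists together and the levels of PECAM1, ENG and VWF were added after the data were seen. Figures were drawn with matplotlib 3.10.9.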

Additional observations from a re-analysis of the deposited data

How the results depend on the processing

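The 10 genes were chosen with this comparison known and the refits reuse these libraries, so the calls describe the set only. Over the 13 alternatives that refit all genes, SOS1, PDGFRB, EPHA2 and ERBB2 were called each time and SOS2, EGFR, MET and SPRY2 never. Their log2 fold changes ran from 1.69 to 1.81 for SOS1, from -1.80 to -1.65 for PDGFRB, from -0.67 to -0.54 for EPHA2, from -0.36 to -0.24 for ERBB2, from 0.59 to 0.89 for AREG and from 0.53 to 0.81 for DUSP6, with no change of sign in any of the 10 genes. Over all genes, leaving out 1 library gave 1703 to 2189 raised and 1272 to 1478 lowered, the lowest without formononetin replicate 3 and without control replicate 3. With a replicate block 1921 genes were raised and 1362 lowered. Same-numbered libraries did not deviate together (correlations of -0.002, 0.009 and -0.022), and whether they share more than a number is not stated. The block gave 5 raised adaptor, RAS and kinase genes, and 3 raised and 3 lowered brakes. Upper quartile scaling gave 33 lowered and 11 raised genes over the 5 lists, with 4 raised and 5 lowered adaptor, RAS and kinase genes, 3 raised and 12 lowered brakes and 4 lowered feedback genes. DESeq2 gave 6 raised and 4 lowered feedback genes, and library totals alone gave 5 raised. Leaving out 1 library gave 10 to 19 raised genes over the lists, 0 to 2 raised receptors, 1 to 2 raised ligands, 4 to 7 raised and 1 to 3 lowered adaptor, RAS and kinase genes, 3 to 4 raised and 2 to 3 lowered brakes, and 1 to 4 lowered feedback genes. Fewer libraries were used in those fits, and the cause of the other shifts was not tested.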
